A study of Mus musculus with 6 samples.

Results

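Collagen chains were examined in mouse bone marrow mesenchymal stem cells (BMMSCs), cultures of marrow cells that attach to plastic, after treatment with siRNAs against Tet1 and Tet2. The chains were taken as every gene symbol of the deposited expression table made of Col, a number, the letter a and a number, which gave 44 genes of 36870 symbols. The control group was 3 libraries of C57BL/6 BMMSCs at passage p2 that received non-targeting siRNAs, and the siRNA group was 3 libraries of the same strain, cell type and passage that received Tet1 and Tet2 siRNAs together. This follows the labels. In the methods text the sequencing section names a vehicle control, the knockdown section names non-targeting siRNAs as the negative control, and the passage given is an earlier one. What the control cells received is therefore not settled. Both groups were plastic-adherent marrow cultures with no stated sort, and the sources used here do not say whether the libraries of a group came from separate mice or cultures, so p-values measure the spread between these libraries, which may be technical. Levels are in RPKM, a read density scaled to gene length and library size, on which chains of different length can be compared.

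Collagens are triple-helical matrix proteins built from alpha chains, which are hydroxylated and assembled in the endoplasmic reticulum, trimmed outside the cell and crosslinked by lysyl oxidases. Fibrillar collagens make the rope-like fibrils of bone, skin and tendon, and type I, built from Col1a1 and Col1a2, is the main protein of bone matrix. FACIT collagens sit on fibril surfaces, type IV forms the network of basement membranes, type VI forms beaded filaments around cells, and multiplexins lie beside basement membranes. Tet1 and Tet2 oxidise 5-methylcytosine in DNA, mostly where C is followed by G, and bone marrow stromal cells and the osteoblasts that arise from them are rich sources of type I collagen.

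Because the knocked-down enzymes act on CG sites, the upstream sequence of 4 chains is shown, from RefSeq on the GRCm38.p6 build, read 5′ to 3′ on the strand of the gene. Each window is the 250 bases before the RefSeq start and holds no exon of the GENCODE M21 annotation, and capitals mark CG. Col3a1 at chr1:45311288-45311537 on the plus strand and Col5a1 at chr2:27886175-27886424 on the plus strand were lower in the siRNA libraries and hold 0 and 28 CG. Col5a3 at chr9:20815068-20815317 on the minus strand and Col15a1 at chr4:47207762-47208011 on the plus strand were not called different and hold 17 and 8 CG. These 4 were picked after their values were seen.
Col3a1: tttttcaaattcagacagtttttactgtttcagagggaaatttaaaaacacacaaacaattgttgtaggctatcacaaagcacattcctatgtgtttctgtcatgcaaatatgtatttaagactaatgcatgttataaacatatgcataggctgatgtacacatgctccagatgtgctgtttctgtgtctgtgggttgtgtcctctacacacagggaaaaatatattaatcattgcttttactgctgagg
Col5a1: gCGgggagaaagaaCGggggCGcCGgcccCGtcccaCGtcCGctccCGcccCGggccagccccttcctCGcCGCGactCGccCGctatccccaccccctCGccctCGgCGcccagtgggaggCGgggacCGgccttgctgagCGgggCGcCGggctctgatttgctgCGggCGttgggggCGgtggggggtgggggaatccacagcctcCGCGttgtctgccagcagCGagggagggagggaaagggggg
Col5a3: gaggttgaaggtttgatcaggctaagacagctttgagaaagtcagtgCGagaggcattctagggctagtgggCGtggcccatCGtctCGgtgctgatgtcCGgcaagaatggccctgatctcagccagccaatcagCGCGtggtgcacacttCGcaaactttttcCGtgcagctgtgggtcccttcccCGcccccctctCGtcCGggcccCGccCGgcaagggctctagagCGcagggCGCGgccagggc
Col15a1: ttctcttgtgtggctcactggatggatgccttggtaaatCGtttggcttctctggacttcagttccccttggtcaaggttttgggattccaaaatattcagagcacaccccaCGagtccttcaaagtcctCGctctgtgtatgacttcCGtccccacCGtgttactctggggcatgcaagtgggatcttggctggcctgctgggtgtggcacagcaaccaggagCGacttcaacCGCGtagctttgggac

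RefSeq windows of 250 bases before a start were found for 35 of the 44 chains, 38 windows in all since some genes have more than 1 start. None was found for Col1a1, Col2a1, Col5a2 or Col12a1, so these lower chains are missing from the counts of lower chains. Col14a1, Col9a3, Col22a1, Col26a1 and Col4a3 had none either. Of the 38 windows, 20 held no annotated exon and the rest overlapped one in part or in full, and all 38 enter the counts here. The median was 9.5 CG per window, against 6.0 over the 32851 windows of all genes. The 16 windows of chains that were lower in the siRNA libraries held from 0 to 31 CG with a median of 8.5, and the 6 windows of chains that were tested and not called held from 1 to 18 with a median of 14.5, so the ranges overlapped. CCAAT, or ATTGG for the other strand, was in 34.2% of collagen windows and 33.8% of all windows, with 8 of the 16 windows of lower chains and 1 of the 6 windows of chains not called, and TATAAA, or TTTATA for the other strand, was in 13.2% and 12.4%. No methylation was measured in these libraries.

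Tet2, the more abundant of the targeted genes, was at 2.57, 4.08 and 3.71 RPKM in control replicates 1 to 3 and at 0.358, 0.238 and 0.202 RPKM in siRNA replicates 1 to 3, a log2 fold change of -1.80 (SE 0.13, adjusted p = 2.88e-05). Tet1 was at 0.0320 to 0.0980 RPKM in controls and 0.001 to 0.010 RPKM after siRNA treatment, under the minimum for a test. The estimated depth was 32400000 to 38600000 reads per library. Libraries correlated with r of 0.992 to 0.997 within a group and 0.949 to 0.969 between groups, across genes, which are not independent replicates. Fold changes are differences of log2(RPKM + 1), siRNA minus control, from limma over the 13266 genes whose 6-library mean reached 0.1 RPKM, with p-values adjusted by the Benjamini-Hochberg method over all of them. A gene was called lower or higher at an adjusted p under 0.05, and altered at an unadjusted p under 0.05 with a fold over 2.

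Most collagen chains tested were lower after Tet1 and Tet2 knockdown. Of 28 chains, 19 were lower, against 29.8% of all genes tested, 1 was higher, against 14.7%, and 8 were not called. With each library scaled to its stromal markers, 10 were lower, against 2.53% of all genes, and 6 higher, against 87.1%. That scaling moved the median of all genes to 1.38. It turned 6 chains from negative to positive, Col5a3, Col6a3, Col16a1, Col14a1, Col27a1 and Col9a3. In the deposited values, 16 were altered downward by the fold criterion, against 5.63% of all genes, and 0 upward, against 0.95% (by limma, Col18a1 alone had a positive value at an unadjusted p under 0.05). With 1 RPKM added before the log, a chain under 1 RPKM in all libraries cannot reach a fold of 2. The siRNA libraries were all below the control libraries for 21 of the 28 (35.9% of all genes) and all above them for 3 (19.8%). The median log2 fold change of the 28 was -1.26, against -0.09 over all genes, whose values ran from -5.05 to 3.05. Of the 19, 16 kept a siRNA mean of at least 0.1 RPKM, while Col10a1, Col7a1 and Col6a4 passed the minimum through their control libraries, so their calls do not add to the count. Among the 16 lower chains that reached a mean of 1 RPKM in a group, control means were at least 2.73 times the siRNA means, with a median of 5.74 times. These are bulk cultures, in which fewer collagen-producing cells and less collagen RNA per cell cannot be told apart. The summed RPKM of stromal markers was 2.09 times higher in the controls. That sum leans on Vim, the largest, at 1778 RPKM in controls and 1519 RPKM after siRNA treatment and not called. The median log2 fold change of the 24 stromal markers tested was -1.53. Macrophage markers summed to 1.74 times more in the siRNA libraries (1.18 times without Lyz2, the largest). The part of both marker sets in the counts above was not tested.

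**Figure D1:**
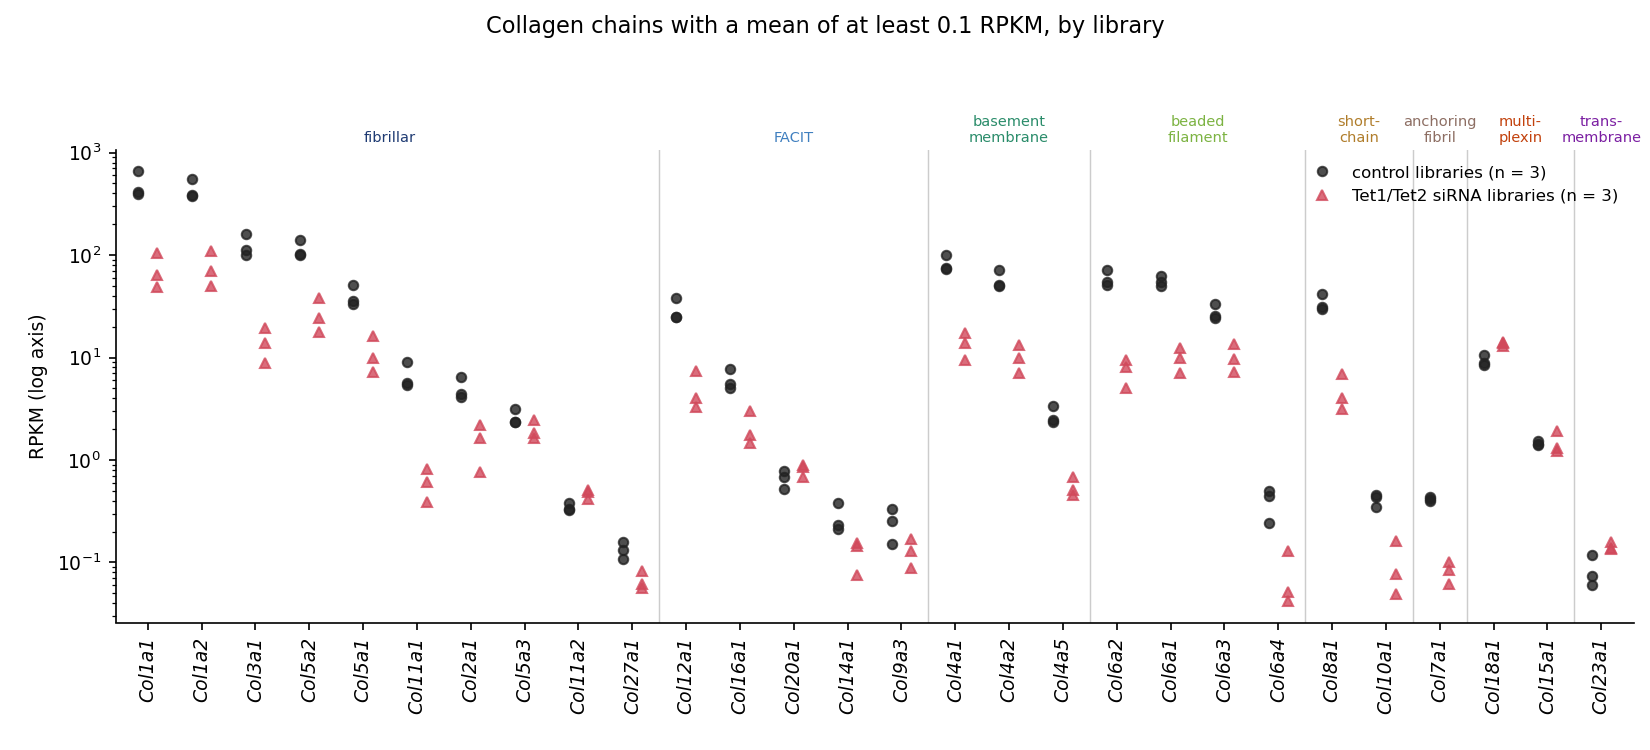
RPKM (log axis) of each of the 28 collagen chains tested, in 3 control libraries (circles) and 3 Tet1/Tet2 siRNA libraries (triangles), ordered by chain class and then by control mean. For 21 chains all triangles lie below all circles, for Col18a1, Col11a2 and Col23a1 they lie above, and for the other 4 they overlap.

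The fibrillar class held the most abundant chains, and 7 of its 10 tested members were lower, against 29.8% of all genes. On the scale of the stromal markers 4 were lower and 2 higher, where 2.53% of all genes were lower and 87.1% higher. Col1a1, the major chain of type I collagen (chr11:94936224-94953042 on the plus strand, GRCm38), was at 416, 394 and 655 RPKM in controls and 48.4, 64.2 and 104 RPKM after siRNA treatment. The lowest control library was several times the highest siRNA library. Its mean was 6.77 times higher in the control group, and its log2 fold change was -2.78 (SE 0.28, adjusted p = 0.000122). By level it ranked 77 of 36870 symbols among controls and 968 after treatment.

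Its partner Col1a2 (chr6:4504814-4541544 on the plus strand) was at 390, 373 and 548 RPKM in controls and 50.3, 69.9 and 109 RPKM after siRNA treatment, with a log2 fold change of -2.55 (SE 0.26, adjusted p = 0.000131). Both chains of type I collagen were thus lower, by 6.77 and 5.72 times in the ratio of means. Col3a1, the single chain of type III collagen that is found with type I in fine fibrils, was at 112, 101 and 160 RPKM in controls and 8.75, 13.9 and 19.6 RPKM after siRNA treatment. Its log2 fold change of -3.10 (SE 0.26, adjusted p = 5.52e-05) was the lowest of the 28 chains, and its rank moved from 519 to 4828.

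Col5a1 and Col5a2 encode chains of type V collagen, which is built into type I fibrils and limits their width. Col5a2 was at 101, 102 and 141 RPKM in controls and 17.6, 24.1 and 37.7 RPKM after siRNA treatment (log2 fold change -2.12, SE 0.25, adjusted p = 0.000253). Col5a1 was at 35.5, 33.2 and 51.6 RPKM against 7.27, 9.92 and 16.2 RPKM (log2 fold change -1.80, SE 0.26, adjusted p = 0.000804). For neither did the groups overlap. The third type V chain, Col5a3, was at 2.35, 2.34 and 3.14 RPKM in controls and 1.62, 1.84 and 2.46 RPKM after siRNA treatment. Here the groups overlapped, since siRNA replicate 3 was above control replicates 1 and 2, and the log2 fold change of -0.28 (SE 0.13) did not pass (adjusted p = 0.119). With the replicate number as a block, Col5a3 passed (adjusted p = 0.0228), in a fit that called 33.7% of all genes lower, and it also passed without siRNA replicate 3 (adjusted p = 0.0367).

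Col11a1, a type XI chain that pairs with type V chains outside cartilage, had the largest ratio of means of all chains tested, from 6.68 ± 2.07 to 0.606 ± 0.21 RPKM (SD, n = 3). It was at 5.38, 5.59 and 9.06 RPKM in controls and 0.392, 0.610 and 0.817 RPKM after siRNA treatment, and its log2 fold change was -2.23 (SE 0.18, adjusted p = 4.55e-05). Because 1 RPKM is added before the log, this fold change understates the change of a chain whose siRNA level is under 1 RPKM. Col2a1, the main cartilage collagen, was at 4.42, 4.15 and 6.41 RPKM in controls and 0.763, 1.63 and 2.18 RPKM after siRNA treatment (log2 fold change -1.27, SE 0.22, adjusted p = 0.00222). The groups did not overlap, but with no filter on low values the difference did not pass (adjusted p = 0.0699). Of the chondrocyte markers, Sox9, Matn1 and Comp were tested and overlapped between the groups, Acan, the cartilage proteoglycan, was at 0.001 to 0.018 RPKM, and Hapln1, which links it to hyaluronan, was listed at the lowest value of 0.001 in all 6 libraries.

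Of the rarer fibrillar chains, Col11a2 was at 0.326 to 0.383 RPKM in controls and 0.417 to 0.514 RPKM after siRNA treatment, above the control group without passing the test (log2 fold change 0.13, adjusted p = 0.136). Col27a1 was at 0.109 to 0.159 RPKM and 0.0560 to 0.0820 RPKM, below it without passing (log2 fold change -0.09, adjusted p = 0.225). Col24a1 was under the minimum for a test. By quantile normalization Col11a2 was higher (log2 fold change 0.29, adjusted p = 0.00357).

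Among the FACIT collagens, 2 of 5 tested chains were lower, against 29.8% of all genes. On the stromal scale 1 was lower, against 2.53% of all genes, and 1 higher, against 87.1%. Col12a1, which lies along type I fibrils in dense tissue, was at 24.9, 24.9 and 38.2 RPKM in controls and 3.28, 4.05 and 7.34 RPKM after siRNA treatment. Its control mean was 6.00 times the siRNA mean (log2 fold change -2.40, SE 0.25, adjusted p = 0.000157). Col16a1, a minor chain tied to fibrils and to the cell surface, was at 5.54, 5.10 and 7.72 RPKM against 1.45, 1.74 and 3.00 RPKM (log2 fold change -1.23, SE 0.20, adjusted p = 0.00152). For both chains every siRNA library was below every control library, and with no filter on low values Col16a1 did not pass (adjusted p = 0.0547). Col14a1, Col20a1 and Col9a3 were under 1 RPKM in all libraries and not called, with adjusted p of 0.0742, 0.264 and 0.147. Col14a1 was at 0.214 to 0.377 RPKM in controls and 0.0750 to 0.155 RPKM after siRNA treatment, without overlap, and the other 2 overlapped.

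All 3 tested chains of type IV collagen were lower, against 29.8% of all genes. On the stromal scale 2 of them were lower, against 2.53% of all genes. Col4a1 was at 74.8, 72.4 and 99.5 RPKM in controls and 9.50, 13.7 and 17.3 RPKM after siRNA treatment, with a log2 fold change of -2.54 (SE 0.20, adjusted p = 3.82e-05). Col4a2, its partner in the network of nearly all basement membranes, was at 51.2, 50.4 and 72.1 RPKM against 7.10, 9.79 and 13.3 RPKM (log2 fold change -2.43, SE 0.21, adjusted p = 5.76e-05). The means differed by 6.08 and 5.75 times. These genes lie head to head on chromosome 8 (chr8:11198423-11312826 on the minus strand and chr8:11312805-11449287 on the plus strand) and overlap by 22 bases, and whether the reads were counted by strand is not given in the sources used here.

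Col4a5, a chain of the specialised basement membranes of kidney and other tissues, was at 2.36, 2.45 and 3.34 RPKM in controls and 0.452, 0.514 and 0.678 RPKM after siRNA treatment (log2 fold change -1.26, SE 0.12, adjusted p = 7.93e-05). Its head-to-head neighbour Col4a6, 1308 bases away on chromosome X, was at 0.001 to 0.014 RPKM in all 6 libraries. The other head-to-head pair, Col4a3 and Col4a4 on chromosome 1 with 71 bases between them, was at 0.001 to 0.033 RPKM. Type IV in these cultures was therefore almost all Col4a1 and Col4a2. Endothelial markers, from cells that also make type IV collagen, were 2 lower and 1 higher of 4 tested, where 29.8% of all genes were lower and 14.7% higher. All 6 summed to 2.66 ± 0.22 RPKM among controls and 1.44 ± 0.072 RPKM in the siRNA group (SD, n = 3).

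All 4 tested chains of the beaded filament class were lower, by unequal amounts, against 29.8% of all genes. Col6a4 passed the minimum through its control libraries, so its call does not add to this count. On the scale of the stromal markers 2 of the 4 were lower, against 2.53% of all genes, and Col6a3 turned positive. Col6a1 was at 54.9, 49.96 and 63.0 RPKM in controls and 7.10, 9.96 and 12.4 RPKM after siRNA treatment (log2 fold change -2.42, SE 0.17, adjusted p = 2.28e-05). Col6a2 was at 54.8, 51.6 and 71.9 RPKM against 4.99, 8.05 and 9.43 RPKM (log2 fold change -2.85, SE 0.20, adjusted p = 2.36e-05). Col6a3, the longest chain of the standard type VI molecule, was at 24.3, 25.6 and 33.5 RPKM against 7.30, 9.75 and 13.5 RPKM (log2 fold change -1.39, SE 0.20, adjusted p = 0.000736). The ratios of means were 5.69, 7.93 and 2.73 times, the last being the lowest among the 16 lower chains of at least 1 RPKM. Col6a1 and Col6a2 lie in the same direction on chromosome 10 with 85161 bases between them, and Col6a3 is on chromosome 1. Col6a4, a chain related to Col6a3, was at 0.243, 0.448 and 0.498 RPKM in controls and 0.0520, 0.0420 and 0.129 RPKM after siRNA treatment (log2 fold change -0.37, SE 0.084, adjusted p = 0.00744, or 0.101 with no filter on low values).

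Col8a1, a short-chain collagen of vessel walls and of the membrane behind the cornea, was at 29.8, 31.1 and 41.9 RPKM in controls and 3.17, 4.05 and 6.83 RPKM after siRNA treatment. Its mean was 7.32 times higher in the control group (log2 fold change -2.67, SE 0.22, adjusted p = 5.16e-05). Col10a1, the collagen of hypertrophic cartilage, was at 0.455, 0.345 and 0.433 RPKM against 0.0490, 0.0770 and 0.162 RPKM (log2 fold change -0.37, SE 0.068, adjusted p = 0.00302). Col7a1, which forms the anchoring fibrils under the epidermis, was at 0.436, 0.400 and 0.419 RPKM against 0.0610, 0.0850 and 0.10 RPKM (log2 fold change -0.39, SE 0.057, adjusted p = 0.000836). The groups overlapped for none of these 3 chains. The lowest siRNA values of Col10a1, Col7a1 and Col6a4 correspond to an estimated 6, 22 and 12 reads. Their control means were 4.28, 5.10 and 5.33 times the siRNA means, so the added 1 RPKM makes their log2 fold changes understate the change.

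Neither multiplexin was lower. Col18a1, whose cut C-terminal fragment is endostatin, was at 8.87, 8.45 and 10.6 RPKM in controls and 13.01, 13.8 and 14.2 RPKM after siRNA treatment. Every siRNA library was above every control library, by 1.47 times in the means, and the log2 fold change was 0.52 (SE 0.093, adjusted p = 0.00253). It was the 1 chain of 28 called higher, and it did not reach a fold of 2. Col15a1, the other multiplexin, was at 1.40, 1.44 and 1.54 RPKM in controls and 1.23, 1.30 and 1.93 RPKM after siRNA treatment. The groups overlapped, with siRNA replicate 3 highest and siRNA replicates 1 and 2 lowest of the 6. No difference was called on the deposited scale (log2 fold change 0.00, SE 0.11, adjusted p = 0.982). With libraries scaled to stromal markers Col15a1 was called higher at 1.03, where 87.1% of all genes were higher and the median of all genes was 1.38. By quantile normalization it was called higher as well (0.25, adjusted p = 0.0467), where the median of all genes was 0.055. Of the transmembrane collagens, Col23a1 was tested, at 0.0600 to 0.117 RPKM in controls and 0.134 to 0.160 RPKM after siRNA treatment (adjusted p = 0.289).

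**Figure D2:**
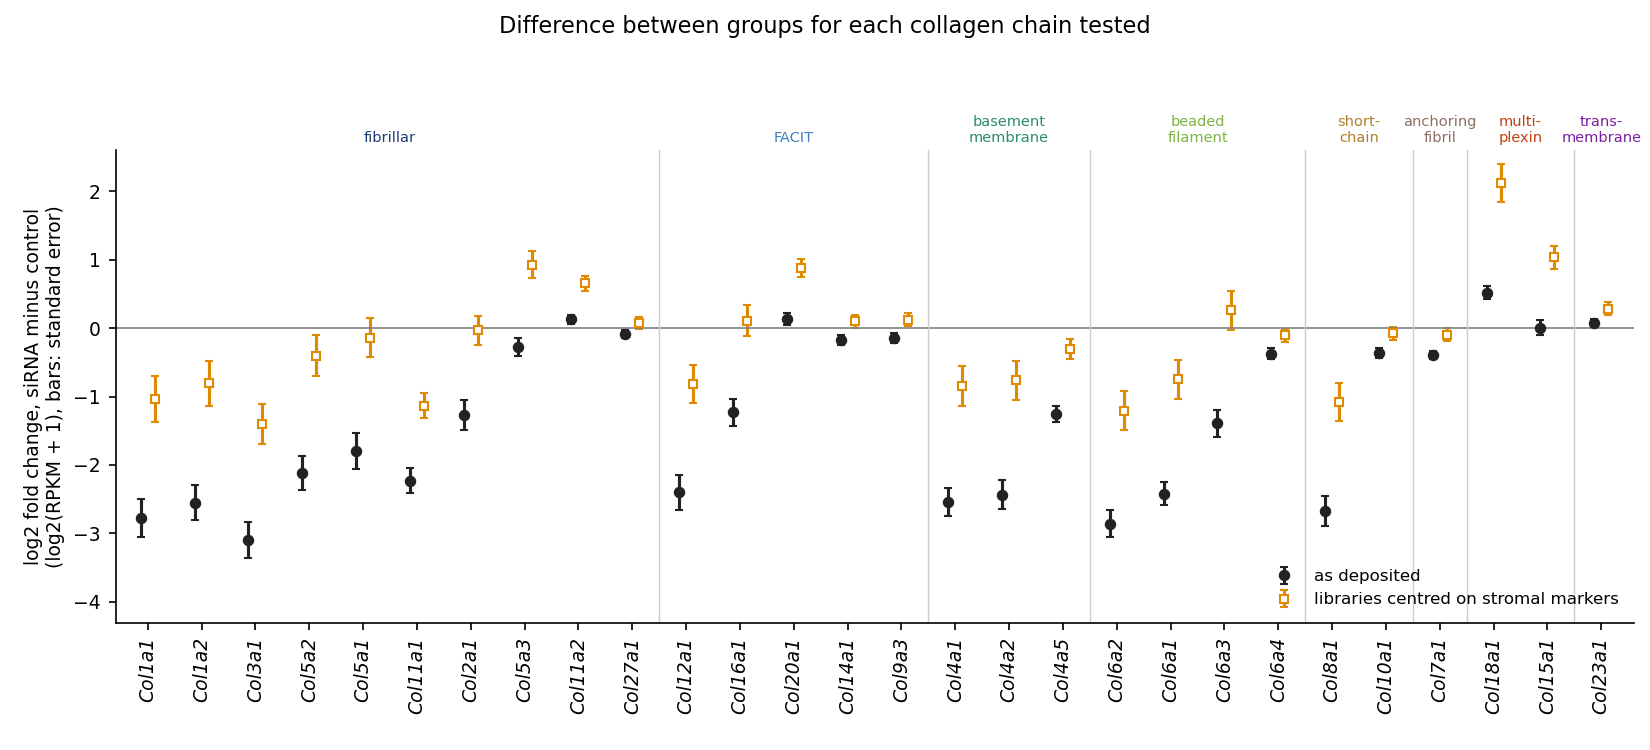
Difference of log2(RPKM + 1) between groups (siRNA minus control) with its standard error for each of the 28 chains tested, from the values as deposited (filled circles) and after each library was scaled by the median deviation of its stromal markers from their means (open squares). On the deposited scale the chains reach from -3.10 for Col3a1 to 0.52 for Col18a1, and on the second scale from -1.40 to 2.11 for the same chains.

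The 16 chains under the minimum were Col13a1, Col17a1, Col19a1, Col22a1, Col24a1, Col25a1, Col26a1, Col28a1, Col4a3, Col4a4, Col4a6, Col6a5, Col6a6, Col8a2, Col9a1 and Col9a2, at 0.001 to 0.195 RPKM. The lowest listed value, 0.001, stood in at least 1 library for 12 of them and in all 6 libraries for Col26a1. Col8a2, the partner of Col8a1, was at 0.145, 0.150 and 0.147 RPKM in controls and 0.001, 0.012 and 0.032 RPKM after siRNA treatment. It was named after its values were seen.

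Summed over all 44 chains, collagen RPKM was 1403, 1343 and 2021 in the control libraries and 195, 265 and 394 in the siRNA libraries. The means were 1589 ± 375 and 285 ± 101 (SD, n = 3), 5.58 times apart, and made up 0.385% and 0.0659% of all RPKM. Without type I collagen the sum was 664 ± 134 against 136 ± 42.6, 4.86 times apart. The fibrillar class took 76.6% ± 1.19 of collagen RPKM among controls and 71.3% ± 2.54 in the siRNA group. Col1a1 took 30.5% ± 1.67 and 25.1% ± 1.09, Col1a2 took 27.6% ± 0.39 and 26.6% ± 0.99, and Col3a1 took 7.83% ± 0.25 and 4.90% ± 0.39. Multiplexins, nearly all Col18a1, went from 0.689% ± 0.078 to 5.70% ± 1.59. The basement membrane share was 9.05% ± 0.35 and 8.59% ± 0.58, and the beaded filament share was 9.14% ± 0.68 and 9.81% ± 0.76. Type I collagen thus stayed the largest part of collagen RPKM in both groups. These shares describe the members and carry no test.

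**Figure D3:**
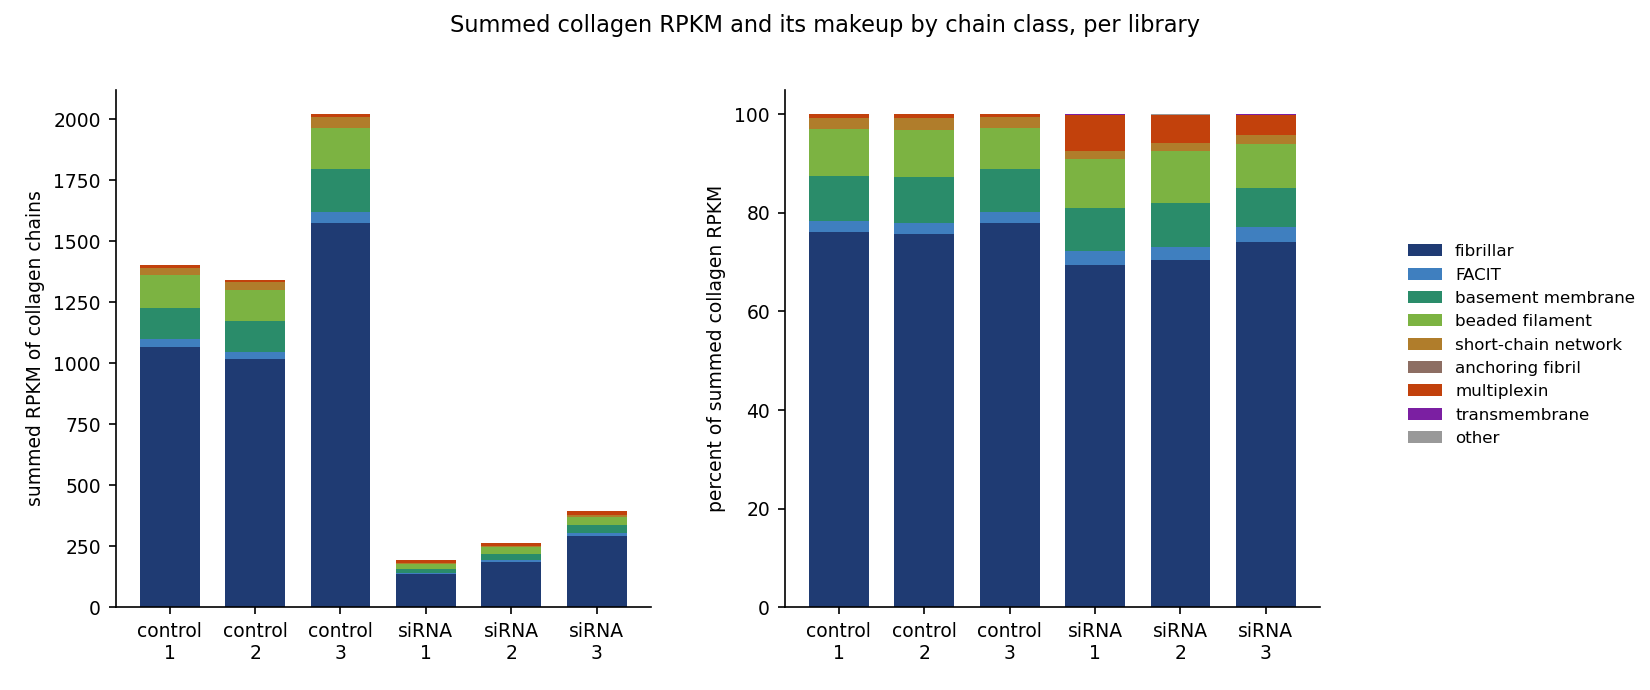
Summed RPKM of the 44 collagen chains in each of the 6 libraries (left) and the percent of that sum in each chain class (right), with classes stacked by colour. The 3 siRNA bars reach 195 to 394 RPKM against 1343 to 2021 for the controls, and the multiplexin part is widest in the siRNA libraries.

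The chains varied together across the libraries of a group. Of the 19 chains that reached 1 RPKM in a group mean, control replicate 3 was the highest control library for 19, siRNA replicate 3 the highest siRNA library for 19, and siRNA replicate 1 the lowest for 19. Col18a1 and Col15a1 followed this order too. The lowest control library was replicate 1 for 7 chains and replicate 2 for 12. These orders were not counted over all genes, so they are not shown to be particular to collagen chains. Fn1, Lox and Fbn1, which are not collagens, also had replicate 3 highest in both groups, while Acta2 was lowest in control replicate 3. Without control replicate 3, the highest collagen library, 20 of 28 chains were lower, the added one being Col9a3 (adjusted p = 0.0481), and 16 were still altered. The share of all genes called in that fit is not given here, so these counts have no background.

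The stoichiometry of chains that share a molecule was compared with ratios of RPKM, which do not depend on how a library was scaled. For 6 pairs, exact two-sided permutation tests over the libraries were run, in which 3 against 3 cannot go below p = 0.1. The largest difference was in type VI, where Col6a3/Col6a1 was 0.444, 0.511 and 0.532 in the control libraries and 1.03, 0.979 and 1.08 in the siRNA libraries, a log2 difference of 1.06 (exact p = 0.1, adjusted p = 0.12). Col6a2/Col6a1 was 0.999, 1.03 and 1.14 against 0.702, 0.808 and 0.758, a log2 difference of -0.48 with the same p. The groups did not overlap for either ratio.

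In type I, Col1a2/Col1a1 was 0.936, 0.947 and 0.837 in the control libraries and 1.04, 1.09 and 1.05 in the siRNA libraries, a log2 difference of 0.23 (exact p = 0.1, adjusted p = 0.12). Col3a1/Col1a1, the ratio of type III to type I, was 0.270, 0.257 and 0.245 against 0.181, 0.216 and 0.189, and Col5a2/Col5a1 was 2.83, 3.07 and 2.74 against 2.42, 2.43 and 2.32, with log2 differences of -0.40 and -0.27. Both had the same exact p of 0.1 and did not overlap. For type IV, Col4a2/Col4a1 overlapped, at 0.684, 0.696 and 0.725 against 0.748, 0.713 and 0.767 (log2 difference 0.08, exact p = 0.2, adjusted p = 0.2). The smallest p the design allows was thus met by 5 of 6 ratios, and none passed 0.05 after adjustment or before it. Within same-numbered pairs, all 6 ratios, Col4a2/Col4a1 among them, differed in 1 direction in 3 of 3 pairs, for which an exact sign-flip permutation test cannot go below p = 0.25.

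**Figure D4:**
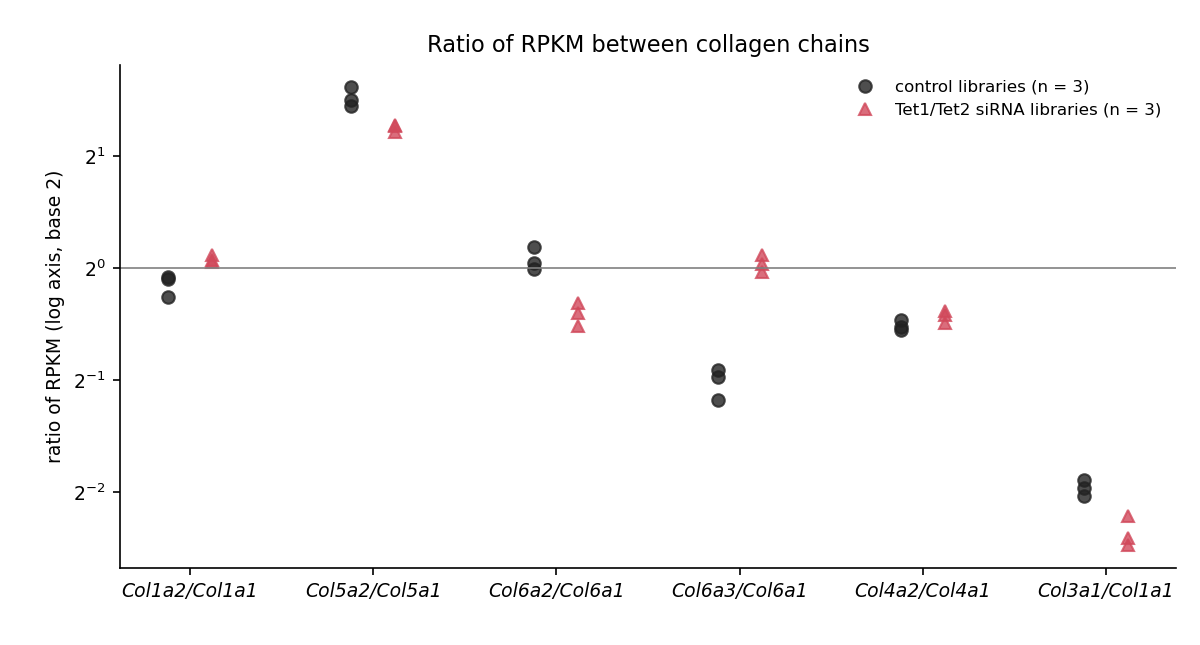
Ratio of RPKM (log axis, base 2) between chains of 1 molecule, and of type III to type I, in 3 control libraries (circles) and 3 siRNA libraries (triangles). Col6a3/Col6a1 lies at 0.444 to 0.532 in the control libraries and 0.979 to 1.08 in the siRNA libraries, and Col4a2/Col4a1 overlaps.

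Genes that make, export and bind collagen were mostly lower in the deposited values. Of 50 listed genes of the collagen pathway, 45 were tested, 40 were lower, 1 was higher and 4 were not called, with a median log2 fold change of -1.23 (29.8% of all genes were lower and 14.7% higher, with a median of -0.09). With libraries scaled to stromal markers 6 of the 45 were lower and 16 higher, with a median of 0.024, where 2.53% of all genes were lower and 87.1% higher, with a median of 1.38. All 13 tested hydroxylases and glycosyltransferases were lower, and on the stromal scale 8 were higher where 87.1% of all genes were. After median ratio scaling 11 were lower, but the share of all genes on that scale is not given here. P3h2, at 0.563 RPKM among controls and 0.0793 RPKM after treatment, passed the minimum through its control libraries. On the log2(RPKM + 1) scale the largest changes were in Plod2, a lysyl hydroxylase, from 18.8 to 5.57 RPKM (log2 fold change -1.60, SE 0.15, adjusted p = 9.54e-05), and P3h4, a partner of lysyl hydroxylation, from 18.9 to 5.76 RPKM (log2 fold change -1.60, SE 0.20, adjusted p = 0.000382). Among 9 chaperone and export genes, 6 were lower (on the stromal scale 1 was lower and 5 higher, where 87.1% of all genes were higher). Fkbp10, a prolyl isomerase of the endoplasmic reticulum, went from 48.0 to 9.36 RPKM (log2 fold change -2.28), and Serpinh1, the collagen chaperone HSP47, from 189 to 43.8 RPKM (log2 fold change -2.12). Tmem38b, a cation channel of the endoplasmic reticulum, was higher, from 14.1 to 18.1 RPKM (log2 fold change 0.34, SE 0.064, adjusted p = 0.00302). Ppib, a prolyl isomerase used by many secreted proteins, had a log2 fold change of -0.27 (adjusted p = 0.0430).

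All 6 tested genes of propeptide processing were lower, where 29.8% of all genes were. Among them were Pcolce, which speeds the cut, with a log2 fold change of -2.23, and Bmp1, the C-propeptidase, with -2.14. All 5 lysyl oxidases were lower too, with Loxl2 at -1.94 and Loxl1 at -1.92, and all 4 tested fibril-binding proteoglycans, with Prelp at -2.04 and Bgn at -1.96. On the stromal scale 2 processing genes, 1 proteoglycan and 0 lysyl oxidases were lower, with 0 higher in each of these roles. Of 8 tested collagen receptors, 6 were lower, against 29.8% of all genes. On the stromal scale 2 receptors were lower and 3 higher, where 2.53% of all genes were lower and 87.1% higher. Itga11, the integrin subunit of fibroblasts that binds type I collagen, went from 24.4 to 2.81 RPKM (log2 fold change -2.77, SE 0.22, adjusted p = 4.40e-05), and Mrc2, an endocytic collagen receptor, had a log2 fold change of -2.25. Lair1, a collagen receptor of leukocytes, was at 90.3 RPKM among controls and 86.9 RPKM in the siRNA group (adjusted p = 0.951).

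Levels of stromal and macrophage markers also differed between the groups. The 26 stromal markers, none of them a collagen, summed to 5814, 5626 and 5839 RPKM in controls and 2465, 2748 and 3036 RPKM after siRNA treatment. Of 24 tested, 17 were lower, against 29.8% of all genes, and 1 was higher, against 14.7%, with a median of -1.53. The higher one was Vcam1, with a log2 fold change of 1.67 (adjusted p = 9.98e-07). Vim, the largest in the sum, was at 1778 RPKM in controls and 1519 RPKM after siRNA treatment and was not called. Among the lower ones, Pdgfra, a receptor of mesenchymal cells, had a log2 fold change of -2.48 and Postn, a matrix protein of osteoblast precursors, -3.10. Thy1 and Lepr, which define some marrow stromal cells, were under the minimum, at most 0.146 RPKM in any library.

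The 16 macrophage markers in the table summed to 11948, 11502 and 9506 RPKM in controls and 20705, 19296 and 17202 RPKM after siRNA treatment, and the receptor Csf1r alone stood at 499 and 604 RPKM in the group means. Of these, 7 were higher, against 14.7% of all genes, and 4 lower, against 29.8%. After median ratio scaling 10 were higher and 2 lower, with a median of 0.0031 over all genes. The share of all genes called on that scale is not given here, so these counts have no background. Lyz2, lysozyme, went from 4439 to 11321 RPKM, Ptprc, the leukocyte antigen CD45, was at 52.6 and 53.0 RPKM, and Fcgr1 was lower, with a log2 fold change of -1.93. Within the control group, replicate 3 had the highest collagen and the lowest macrophage sum, and within the siRNA group the same held for replicate 3. The part of these markers in the collagen results was not tested beyond the scaling that follows. In the deposited values adipocyte markers were higher for 3 of 4 tested, where 14.7% of all genes were higher and 29.8% lower. Neutrophil markers split with 1 higher and 1 lower of 2, and the 1 B cell marker tested was higher.

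**Figure D5:**
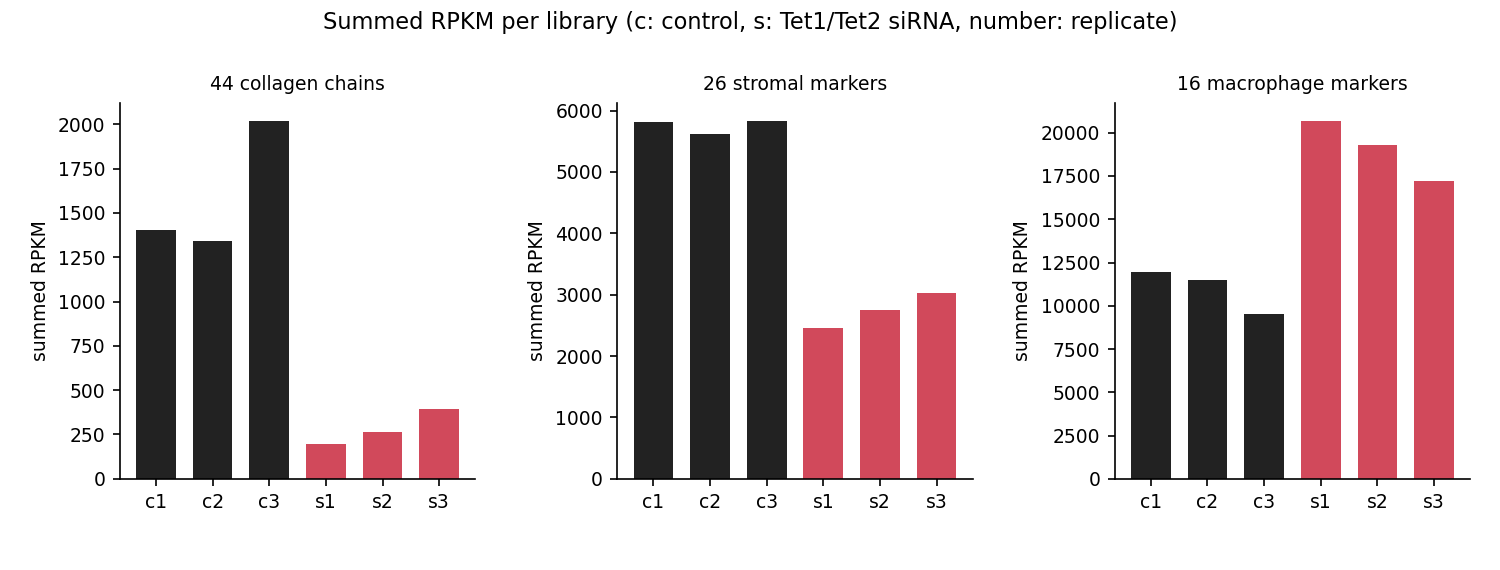
Summed RPKM per library (c, control; s, siRNA; the number is the replicate) of the 44 collagen chains, of 26 stromal markers and of 16 macrophage markers, each axis starting at 0, in the deposited values. The collagen and stromal bars are lower in all 3 siRNA libraries and the macrophage bars are higher.

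To compare the chains with the stromal markers, each library was scaled by a stromal offset, which differed by -1.76 between the groups. The offset was the median, over the 24 stromal markers tested, of a marker's log2 RPKM minus its mean over the libraries. On that scale 10 of 28 chains were lower, against 2.53% of all genes tested, 6 were higher, against 87.1%, and 12 were not called, while the median of all genes was 1.38. Col3a1 at -1.40, Col6a2 at -1.21, Col11a1 at -1.13, Col8a1 at -1.09 and Col1a1 at -1.03 were lower on it too, as were Col4a1, Col12a1, Col1a2, Col4a2 and Col6a1 at -0.85 to -0.75. Col5a1, Col5a2, Col2a1, Col4a5, Col6a3, Col16a1, Col6a4, Col7a1 and Col10a1 were no longer called, and Col6a3 and Col16a1 had positive values of 0.26 and 0.11. Col18a1 at 2.11, Col15a1 at 1.03, Col5a3 at 0.92, Col20a1 at 0.87, Col11a2 at 0.65 and Col23a1 at 0.28 were higher on this scale. Col3a1 was the lowest and Col18a1 the highest chain on both scales.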

How the data were processed

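Libraries were made by the authors from total RNA and sequenced as paired ends. The values used here are deposited RPKM (FPKM in the methods text), which the authors computed in DNASTAR Lasergene after adaptor trimming and mapping to GRCm38. The annotation, strandedness and treatment of multimapping reads are not given in the sources used here, which leaves closely similar paralogs uncertain. A column of the authors' own p-value was not used.

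Where a symbol occurred more than once (37 symbols), its row of highest mean was taken. Genes averaging at least 0.1 RPKM over the libraries were compared by a two-sided limma fit (version 3.58.1, R 4.3.3, lmFit and eBayes with trend) on log2(RPKM + 1), tested on simulated data. No count test was run, since 53.7% to 55.9% of low values came within 0.1 of whole reads at the depth estimated from GENCODE M21 lengths, against 20% by chance. Chain classes, marker and pathway lists and the members were chosen with earlier results of these data known. Chains with a mean of at least 1 RPKM in a group were named with all values, rarer ones if called or as stated, and of the pathway the 2 largest called changes in each direction per role, with 3 more as stated. Ppib, Lair1 and P3h2 were chosen after their values were seen, as were the values shown for cell type markers and the promoters printed.

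Same-numbered libraries deviated together (correlations 0.149, 0.117 and 0.462 across genes for replicates 1 to 3), so the numbers, which come from the titles, were treated as pairs in the block fit, although control 1 with siRNA 2 reached 0.332 and control 2 with siRNA 1 reached 0.205; the main comparisons were unpaired. A sign-flip test of the ratios within pairs was added after seeing the data. Alternatives were 2 other pseudocounts, no filter, a minimum of 1 RPKM, 4 scalings, 2 variance models, the replicate block, the sum of repeated symbols and each library left out. Python 3.11.15 (numpy 2.4.6, pandas 2.3.3) and matplotlib 3.10.9 were used for annotation and figures.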

Additional observations from a re-analysis of the deposited data

How the results depend on the processing

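Over 18 alternatives, 11 of the 19 chains of at least 1 RPKM kept their call throughout. With libraries centred on stromal markers the count of lower chains became 10, against 2.53% of all genes, and of higher chains 6, against 87.1%. There 7 chains were altered in either direction, Col18a1 (2.11) and Col15a1 (1.03) upward and the others downward. Quantile normalization gave 4 higher chains, adding Col15a1, Col11a2 and Col20a1. The median log2 fold change of the chains tested was -1.65 and -2.15 with pseudocounts of 0.1 and 0.01, -0.16 with no filter, which adds the 16 rare chains, -2.23 with a minimum of 1 RPKM, and -0.10 with stromal centring. With pseudocounts of 0.1 and 0.01, the chains altered in either direction numbered 19 and 20. Leaving out each library gave 19 to 20 lower chains, 1 higher chain, 16 altered chains and a median of -1.45 to -1.12. Col15a1, near 0, turned to -0.0027 and -0.0044 with pseudocounts of 0.1 and 0.01, to -0.033 with equal RPKM sums, and ranged from -0.12 to 0.076 over the libraries left out (-0.015 without control replicate 1, -0.0016 without control replicate 2 and -0.12 without siRNA replicate 3). Under stromal centring Col16a1 turned to 0.11, Col5a3 to 0.92 and Col6a3 to 0.26, where the median of all genes was 1.38. With no filter, Col16a1 (adjusted p = 0.0547) and Col2a1 (adjusted p = 0.0699) lost their call, and without siRNA replicate 3 Col5a3 gained one (adjusted p = 0.0367). The replicate block gave 20 lower and 1 higher chain, against 33.7% and 16.9% of all genes, and changed no call but that of Col5a3 (-0.28). Shares of all genes are given for calls on the stromal scale and in the replicate block only. The other counts in this section have no such background. The causes were not tested. Rare chains rest on few reads, which limits calls under 1 RPKM.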
